A study of Mus musculus with 4 samples.

Results

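Transcripts of 42 cell cycle genes, 20 of DNA replication and 22 of mitosis, were counted in single cells of mouse lung tumours. They were taken by gene symbol from a list of genes that mark S phase and mitosis, and each of the 42 matched 1 of the 32289 features counted in all 4 libraries. The sets were compared because earlier results of these data had shown S phase genes lower under tamoxifen and mitotic genes not, so that contrast in epithelial-like cells is a description here. The replication genes were Mcm2, Mcm3, Mcm4, Mcm5, Mcm6, Mcm7, Pcna, Tyms, Rrm1, Rrm2, Gins2, Cdc6, Cdc45, Uhrf1, Slbp, Pclaf, Hells, Cdt1, Chaf1b and Dut. The mitotic genes were Top2a, Mki67, Birc5, Ccna2, Ccnb1, Ccnb2, Ube2c, Cdk1, Cenpa, Cenpf, Cenpe, Plk1, Aurka, Aurkb, Bub1, Tpx2, Hmmr, Kif11, Kif20b, Nusap1, Cdc20 and Tacc3.

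All mice carried KrasFSF-G12D, p53frt, Rosa-FSF-CreERT2 and Hnf4aflox, in vehicle and tamoxifen animals alike. An adenovirus with the Flp recombinase under a surfactant protein C promoter (mSPC-FlpO) started the tumours, so that promoter set which cells could be recombined. After 10 weeks the mice received tamoxifen, which activates the Cre recombinase to delete Hnf4a, or vehicle, and tumours were collected 2 weeks later. Live cells were captured before or after bead depletion of CD45 and CD31 cells, giving 1 library for each of the 4 groups: vehicle pre-depletion, vehicle post-depletion, tamoxifen pre-depletion and tamoxifen post-depletion. The labels give the vehicle as ethanol in one field and as corn oil in another, and they do not state how many animals or tumours went into a library. Cells for both portions of a treatment came from the same suspensions, so the pair of libraries before depletion and the pair after it do not replicate each other. With 1 library per group there was no test. The intervals below are 95% and cover counting error only. Those of levels and ratios take each counted transcript as independent and leave out which cells were captured. They are therefore too narrow where few cells hold most transcripts of a set, as for the mitotic genes. Differences between the libraries labelled vehicle and tamoxifen cannot be told apart from differences between animals or tumours.

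A dividing cell copies its DNA in S phase and separates the copies in mitosis. Before S phase, Cdc6 and Cdt1 load the Mcm2 to Mcm7 ring onto replication origins; Cdc45 and the Gins complex turn the ring into an active helicase, and Pcna holds the polymerases on DNA. E2F transcription factors are known to drive many of these genes, whereas many mitotic genes are driven later by the MuvB complex through a promoter element called the cell cycle genes homology region (CHR), often with CCAAT boxes nearby. Dividing cells in lung tumours include the tumour cells and also immune, endothelial and stromal cells.

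Promoter windows of the members show these elements. RefSeq windows on GRCm38.p6, 250 bases before to 50 bases after the transcription start, were matched for 37 of the 42 members (18 replication genes with 20 windows and 19 mitotic genes with 19 windows); Gins2, Mcm4, Ccna2, Tpx2 and Aurkb were not matched. Both strands were searched for an E2F-type run (TTTGGCGC, TTTCGCGC, TTTCCCGC or TTTGCCGC), a CHR (TTTGAA or TTCGAA) and CCAAT. Different motifs overlapped in 1 of the 39 member windows. An E2F-type run was in 9 of 18 replication genes, in 1 of 19 mitotic genes (Cdk1) and in 2.60% of the 27025 genes of the table. A CHR was in 3 of 18 replication genes, 14 of 19 mitotic genes and 21.7% of all genes, and CHR with CCAAT was in 3, 13 and 8.61%, respectively. From 100 bases before the start onwards, a CHR was in 14 of the 19 mitotic genes, 2 of the 18 replication genes and 9.87% of all genes. These matches describe letters in a window, not binding. The windows below are from 5 replication genes and 3 mitotic genes that the results return to, each on the strand of its gene, 5′ to 3′, with matched motifs in capitals.
Mcm3, chr1:20820263-20820562, minus strand: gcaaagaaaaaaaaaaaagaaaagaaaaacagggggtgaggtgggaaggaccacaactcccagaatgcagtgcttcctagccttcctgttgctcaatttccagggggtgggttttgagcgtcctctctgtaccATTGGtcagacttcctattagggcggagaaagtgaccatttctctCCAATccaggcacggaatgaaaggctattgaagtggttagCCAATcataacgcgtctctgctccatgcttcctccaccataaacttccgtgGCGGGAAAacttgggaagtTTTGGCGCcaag
Mcm6, chr1:128359656-128359955, minus strand: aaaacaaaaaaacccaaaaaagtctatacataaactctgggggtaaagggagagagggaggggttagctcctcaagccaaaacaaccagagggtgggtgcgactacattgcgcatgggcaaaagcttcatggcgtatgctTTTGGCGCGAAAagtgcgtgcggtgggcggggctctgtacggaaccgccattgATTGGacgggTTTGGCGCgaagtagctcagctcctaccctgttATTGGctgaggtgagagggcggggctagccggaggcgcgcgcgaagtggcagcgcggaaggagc
Hells, chr19:38930740-38931039, plus strand: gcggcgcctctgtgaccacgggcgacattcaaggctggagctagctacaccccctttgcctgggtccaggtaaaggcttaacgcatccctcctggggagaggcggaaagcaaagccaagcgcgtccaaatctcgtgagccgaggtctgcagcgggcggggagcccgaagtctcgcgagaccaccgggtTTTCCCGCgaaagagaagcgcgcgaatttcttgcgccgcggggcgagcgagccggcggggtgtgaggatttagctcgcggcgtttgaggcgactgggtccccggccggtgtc
Pclaf, chr9:65890073-65890372, plus strand: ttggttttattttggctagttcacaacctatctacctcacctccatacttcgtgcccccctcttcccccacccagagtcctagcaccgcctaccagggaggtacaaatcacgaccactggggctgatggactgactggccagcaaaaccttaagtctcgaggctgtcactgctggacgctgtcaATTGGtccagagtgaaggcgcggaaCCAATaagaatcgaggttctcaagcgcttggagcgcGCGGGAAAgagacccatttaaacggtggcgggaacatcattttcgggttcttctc
Slbp, chr5:33652525-33652824, minus strand: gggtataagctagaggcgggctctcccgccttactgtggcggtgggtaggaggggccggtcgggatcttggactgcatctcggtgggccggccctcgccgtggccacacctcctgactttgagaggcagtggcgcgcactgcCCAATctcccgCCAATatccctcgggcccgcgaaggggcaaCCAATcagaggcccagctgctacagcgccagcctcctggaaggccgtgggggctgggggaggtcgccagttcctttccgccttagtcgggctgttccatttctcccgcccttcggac
Ube2c, chr2:164769679-164769978, plus strand: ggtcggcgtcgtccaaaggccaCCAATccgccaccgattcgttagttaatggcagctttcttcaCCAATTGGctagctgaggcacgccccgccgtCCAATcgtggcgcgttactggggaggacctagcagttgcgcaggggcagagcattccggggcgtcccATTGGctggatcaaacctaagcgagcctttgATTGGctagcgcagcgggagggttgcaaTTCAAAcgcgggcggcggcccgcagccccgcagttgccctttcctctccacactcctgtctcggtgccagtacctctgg
Cdc20, chr4:118437294-118437593, minus strand: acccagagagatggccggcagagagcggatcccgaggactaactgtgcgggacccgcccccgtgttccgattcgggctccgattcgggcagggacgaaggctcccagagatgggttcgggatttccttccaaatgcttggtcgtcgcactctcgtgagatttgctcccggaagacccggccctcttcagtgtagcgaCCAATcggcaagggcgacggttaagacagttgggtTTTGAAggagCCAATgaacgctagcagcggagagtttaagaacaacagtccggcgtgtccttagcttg
Ccnb2, chr9:70421505-70421804, minus strand: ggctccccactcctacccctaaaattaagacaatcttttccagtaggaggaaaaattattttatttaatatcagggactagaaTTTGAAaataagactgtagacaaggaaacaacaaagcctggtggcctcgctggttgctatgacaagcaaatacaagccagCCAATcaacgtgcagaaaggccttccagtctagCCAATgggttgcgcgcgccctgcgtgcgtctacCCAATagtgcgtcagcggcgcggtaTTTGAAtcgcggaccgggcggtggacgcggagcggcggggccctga

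In these windows the E2F-type runs of Mcm3 began 20 and 39 bases after the start, and that of Pclaf 5 bases before it (position -5). Mcm6 held 3 such runs, at -110, -106 and -47, and Hells held 1 at -62. Slbp, the histone mRNA stem-loop binding protein, held neither an E2F-type run nor a CHR, only 3 CCAAT boxes. The mitotic windows had a CHR close to the start: at -29 in Ube2c, at -18 in Cdc20 and at 5 in Ccnb2.

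The libraries held 6558 to 7867 barcodes and 92644997 to 144994771 UMIs (unique molecular identifiers, 1 per captured RNA molecule), and 6111 to 7358 cells were kept. Any pair of libraries shared 10 to 18 barcodes, at most 0.274% of the smaller library. Classes were named from marker genes after clustering without 216 cell cycle genes. Epithelial-like cells numbered 993 in vehicle pre-depletion, 5912 in vehicle post-depletion, 996 in tamoxifen pre-depletion and 6349 in tamoxifen post-depletion. Hnf4a, the targeted gene, was measured in epithelial-like cells as CPM (UMIs of the gene scaled to a total of 1e6 UMIs of the cells summed). It gave 49.2 in vehicle pre-depletion, 48.4 in vehicle post-depletion, 82.3 in tamoxifen pre-depletion and 79.7 in tamoxifen post-depletion. That goes against a lower Hnf4a count under the tamoxifen label; these counts do not show which exons a transcript carries, so the groups are named below by their labels only.

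Both gene sets were detected in every class with at least 50 cells, and T cell-like cells carried the most of each among vehicle pre-depletion cells. There the 20 replication genes summed to 1319 CPM (1295 to 1344) and the 22 mitotic genes to 1114 CPM (1091 to 1137). Epithelial-like cells of the same library were far lower, with 427 CPM of replication genes (419.9 to 435.0) and 364 CPM of mitotic genes (357 to 371). Neutrophil-like cells, which are post-mitotic, were the lowest, with 228 CPM (209.9 to 248) and 142 CPM (128 to 158).

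Among the other classes of that library the replication genes summed to 695 CPM in endothelial-like, 659 in NK cell-like, 616 in B cell-like, 587 in alveolar macrophage-like, 585 in dendritic cell-like and 552 in plasma cell-like cells. The monocyte or macrophage-like class was at 505 CPM and fibroblast-like cells were at 332 CPM. Dendritic cell-like and alveolar macrophage-like cells did not differ in replication genes beyond their counting intervals (572 to 599 and 575 to 599.6). The mitotic genes put the classes in another order: dendritic cell-like cells were at 811 CPM, plasma cell-like at 659, endothelial-like at 619.6, monocyte or macrophage-like at 587, alveolar macrophage-like at 508, B cell-like at 449, fibroblast-like at 439.7 and NK cell-like at 258. B cell-like and fibroblast-like cells did not differ in mitotic genes beyond their intervals (423 to 475 and 416 to 465). The NK cell-like mitotic value rested on 6 cells with at least 2 mitotic UMIs after thinning each cell to 2000 UMIs.

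**Figure D1:**
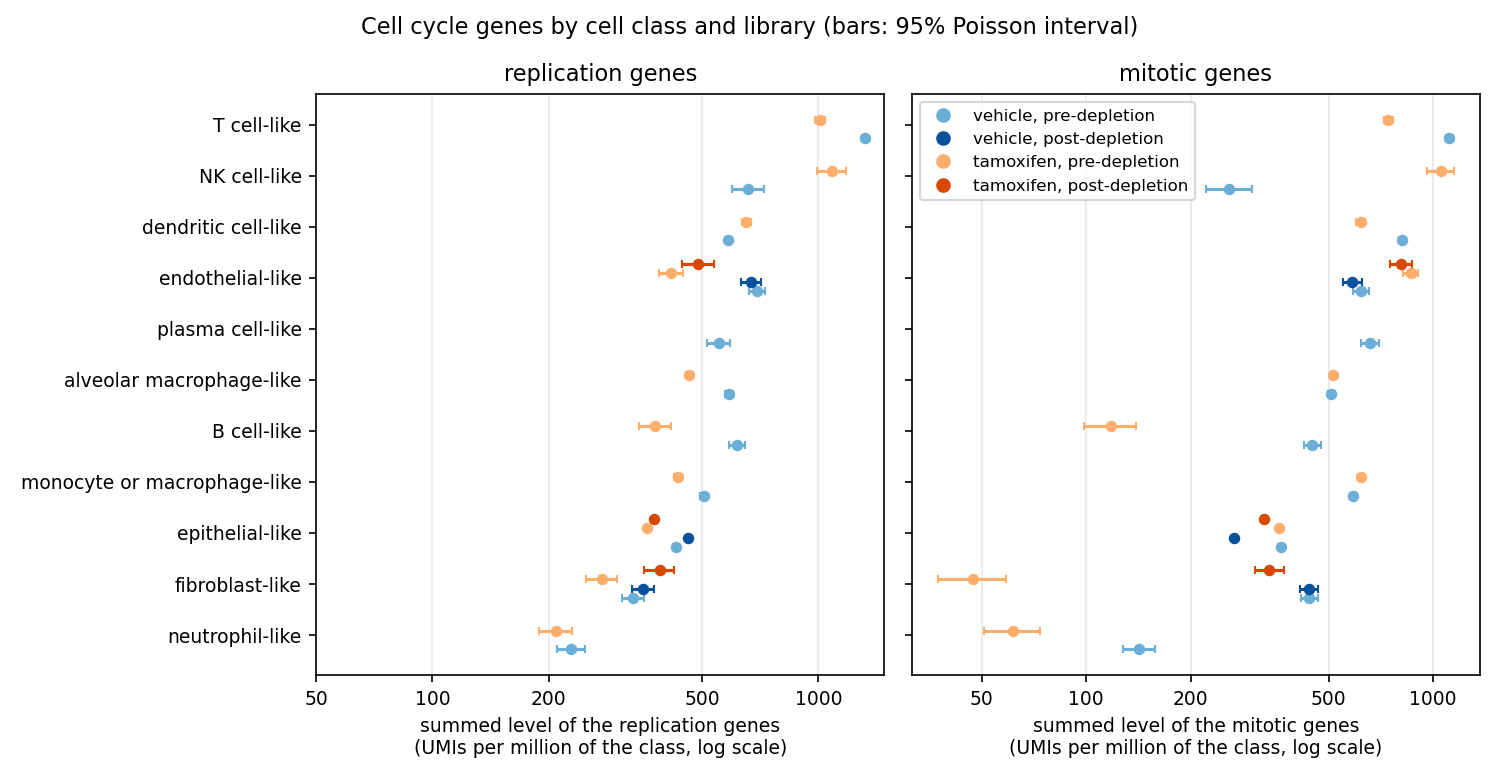
Summed level of the 20 replication genes (left) and the 22 mitotic genes (right) in each class, as UMIs per 1e6 UMIs of the class on a log axis, with 1 point per library (blue for vehicle, orange for tamoxifen, darker after depletion) and bars for the 95% Poisson interval. Among vehicle pre-depletion points T cell-like cells lie highest in both sets (1319 and 1114 CPM) and neutrophil-like cells lowest (228 and 142 CPM).

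The single genes followed their set across classes to different degrees. Over 21 combinations of class and library from 11 classes, the summed levels of both sets had a Pearson r of 0.76; points from 1 library share its depth, and no p is given. The replication genes had a median r of 0.79 with the rest of their own set and 0.65 with the mitotic genes, and the mitotic genes 0.90 with their own set and 0.66 with the replication genes. Of the 20 replication genes, 18 were highest in T cell-like cells. The exceptions were the licensing factor Cdt1, at 71.8 CPM in B cell-like cells, and Slbp, at 133 CPM in NK cell-like cells. The mitotic genes were spread more widely: 8 were highest in T cell-like, 7 in endothelial-like, 4 in plasma cell-like and 3 in NK cell-like cells. Classes were ranked by the mean over their pre-depletion libraries with at least 50 cells, and no such count was made over all genes. Plasma cell-like cells entered with 1 library of 50 cells. NK cell-like cells stood at 258 CPM of mitotic genes in vehicle and 1051 in tamoxifen, from few cells with mitotic UMIs. For 5 replication genes the profile lay closer to the mitotic set than to their own (Tyms and Rrm2 of nucleotide synthesis, Gins2 of the helicase, the Pcna partner Pclaf and the chromatin assembly subunit Chaf1b), and for 0 mitotic genes the reverse. Slbp followed its set least, with r of 0.43, and the centromere histone Cenpa least among the mitotic genes, with r of 0.61.

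Neutrophil-like cells, which served as a background, were not free of these transcripts. Neutrophil-like cells of the vehicle and tamoxifen pre-depletion libraries carried the proliferation marker Mki67 at 27.0 and 17.5 CPM and Cenpa at 25.0 and 16.4 CPM. They carried the sliding clamp Pcna at 81.3 and 73.1 CPM and Slbp at 76.9 and 62.0 CPM. The dUTPase Dut stood at 6.85 and 9.01 CPM there. After thinning to 2000 UMIs, 9 and 3 cells of this class held at least 2 mitotic UMIs. The 10% of cells richest in mitotic UMIs held 93.1% and 100% of them. Such a share is high in any case where UMIs per cell are few, because the cells are ranked by the UMIs then summed. The part of free RNA, doublets or a few cycling cells in these values was not tested.

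How cells share these transcripts differed between the sets. To compare cells at equal depth, each cell with at least 2000 UMIs was thinned to 2000 UMIs, and shallower cells were left out. A cell was counted for a set if it then held at least 2 of its UMIs. In epithelial-like cells the share with replication UMIs was 17.5% in vehicle pre-depletion, 16.0% in vehicle post-depletion, 13.8% in tamoxifen pre-depletion and 14.4% in tamoxifen post-depletion. Both tamoxifen shares lay below both vehicle shares. The neutrophil-like cells, as a background, gave 10.9% and 11.2% in the pre-depletion libraries, so a share of that size was also reached in a class with few mitotic UMIs. The part of a few cycling cells in that share was not tested. Neutrophil-like cells had a median depth of 3418 and 3622 UMIs before thinning, against 16374 to 28695.5 in epithelial-like cells.

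The mitotic share was 5.996% in vehicle pre-depletion, 4.95% in vehicle post-depletion, 5.99% in tamoxifen pre-depletion and 5.16% in tamoxifen post-depletion, against 1.51% and 0.714% in neutrophil-like cells. The pre-depletion shares were nearly equal and above both post-depletion shares. The tamoxifen minus vehicle difference in replication share was -3.64 percentage points (-6.97 to -0.32) before depletion and -1.67 (-2.97 to -0.38) after it. Without thinning the replication shares were 83.7% and 79.3% in the vehicle libraries and 88.6% and 80.7% in the tamoxifen libraries. That was the opposite order within each pair, and the treatments overlapped. The mitotic shares were then 38.5% and 31.7% against 39.8% and 27.9%. The 10% of cells richest in mitotic UMIs held 89.1% to 94.5% of them, whereas the 10% richest in replication UMIs held 42.4% to 45.8% of those. A cell counted as mitotic held on average 8.05 mitotic UMIs in vehicle pre-depletion, 6.16 in vehicle post-depletion, 8.08 in tamoxifen pre-depletion and 7.36 in tamoxifen post-depletion. Among such cells the share that also held replication UMIs was 58.9% and 50.2% in the vehicle libraries and 52.5% and 42.5% in the tamoxifen libraries.

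In epithelial-like cells the replication genes were lower in both libraries labelled tamoxifen, and the mitotic genes were not. The 20 replication genes summed to 427 CPM in vehicle pre-depletion, 459 in vehicle post-depletion, 359.6 in tamoxifen pre-depletion and 376 in tamoxifen post-depletion, so both tamoxifen values lay below both vehicle values. The 22 mitotic genes summed to 364, 267, 361 and 326 CPM in the same order, and the treatments overlapped. The log2 ratio of tamoxifen to vehicle was -0.25 (-0.29 to -0.21) for replication genes before depletion and -0.29 (-0.31 to -0.27) after it. For mitotic genes it was -0.014 (-0.05 to 0.02) and 0.28 (0.26 to 0.31). The mitotic minus replication difference of these ratios was 0.24 (0.18 to 0.29) and 0.57 (0.55 to 0.60). The mitotic ratio before depletion turned positive with TMM (trimmed mean of M values) scaling (0.032) and median-of-ratios scaling (0.045), and after depletion it was 0.16 when epithelial-like cells were chosen by a marker gate on each cell. Epithelial-like states with at least 50 cells in both libraries of a pair were also given common weights, their UMIs pooled over the pair. The replication ratios were then -0.05 and -0.16 and the mitotic ratios 0.51 and 0.42.

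A gene was called by size where it was at least 1.2-fold higher or lower in both pairs and, in each pair, was at 10 CPM or more in at least 1 library. Of the 20 replication genes 15 reached that level, and 8 were lower (Mcm2, Mcm3, Mcm4, Mcm6, Mcm7, Rrm1, Slbp and Hells) and 0 higher. Of the 22 mitotic genes 12 reached it, with 0 lower and 0 higher. Over all 9021 genes considered, 8.60% were called lower and 6.99% higher. The median log2 ratio was -0.23 and -0.30 over the replication genes, -0.05 and 0.24 over the mitotic genes, and -0.03 and 0.01 over all genes considered. The count of 8 depends on the fold and on the weighting of cells: it was 2 (Mcm3 and Rrm1) where each cell counted equally, as the mean over cells of CPM, 1 at a fold of 1.5 (Mcm3) and 0 at a fold of 2. Of all calls 44.8% were higher, against 56.8% with TMM scaling, 56.0% with median-of-ratios scaling and 56.5% with the mean over cells.

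The Mcm helicase ring gave 5 of the 8 lower genes. Mcm3 stood at 20.3 CPM in vehicle pre-depletion, 21.4 in vehicle post-depletion, 12.7 in tamoxifen pre-depletion and 13.6 in tamoxifen post-depletion. Both tamoxifen libraries were lower, by a log2 ratio of -0.64 before depletion (-0.87 to -0.49) and -0.61 after it (-0.74 to -0.56). Mcm2 stood at 18.1, 14.6, 12.2 and 10.8 CPM in the same order, with ratios of -0.53 and -0.40. Mcm7, the most counted of the ring in these libraries, stood at 31.9, 33.8, 26.2 and 26.2 CPM, with ratios of -0.27 and -0.36. For both genes the treatments did not overlap. Mcm4 and Mcm6 had ratios of -0.38 and -0.50, and of -0.38 and -0.38. Mcm5, the remaining subunit, stood at 9.60, 11.7, 9.73 and 9.61 CPM, with ratios of 0.018 and -0.26, and its treatments overlapped.

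Hells, a chromatin remodeller needed for DNA methylation, stood at 21.0 CPM in vehicle pre-depletion, 21.2 in vehicle post-depletion, 15.2 in tamoxifen pre-depletion and 13.5 in tamoxifen post-depletion. Its ratios were -0.44 and -0.62, with no overlap between treatments. Slbp stood at 57.6, 55.8, 44.8 and 45.2 CPM, with ratios of -0.36 and -0.30 and no overlap. Rrm1, the large subunit of ribonucleotide reductase, had ratios of -0.36 and -0.39. Its partner Rrm2 was counted at 5.41 to 9.16 CPM, under the level considered, with ratios of -0.06 and -0.39.

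The remaining replication genes were not called in both pairs. Pcna stood at 71.1 CPM in vehicle pre-depletion, 72.8 in vehicle post-depletion, 62.0 in tamoxifen pre-depletion and 69.4 in tamoxifen post-depletion, with ratios of -0.19 and -0.07. Its tamoxifen values were both lower, by less than 1.2-fold in each pair. Dut stood at 50.8, 60.3, 49.0 and 53.8 CPM, with ratios of -0.05 and -0.16 and overlapping treatments. Gins2 was the one furthest from its set before depletion: it stood at 7.36, 11.0, 10.6 and 10.4 CPM, with ratios of 0.48 and -0.07. Across the set, 17 of 20 genes were below 0 in both pairs, 17 before depletion and 20 after it. Over the 9021 genes considered, 4985 were below 0 before depletion and 4311 after it. The counting interval lay wholly below 0 for 11 replication genes before and 17 after depletion, and wholly above 0 for 1 and 0. Intervals were not counted in this way over all genes. They were narrower after depletion, where the epithelial-like cells held 121663731 and 116645705 UMIs in vehicle and tamoxifen, against 28959513 and 31232313 before it. The counts of intervals before and after depletion are therefore not read against each other.

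**Figure D2:**
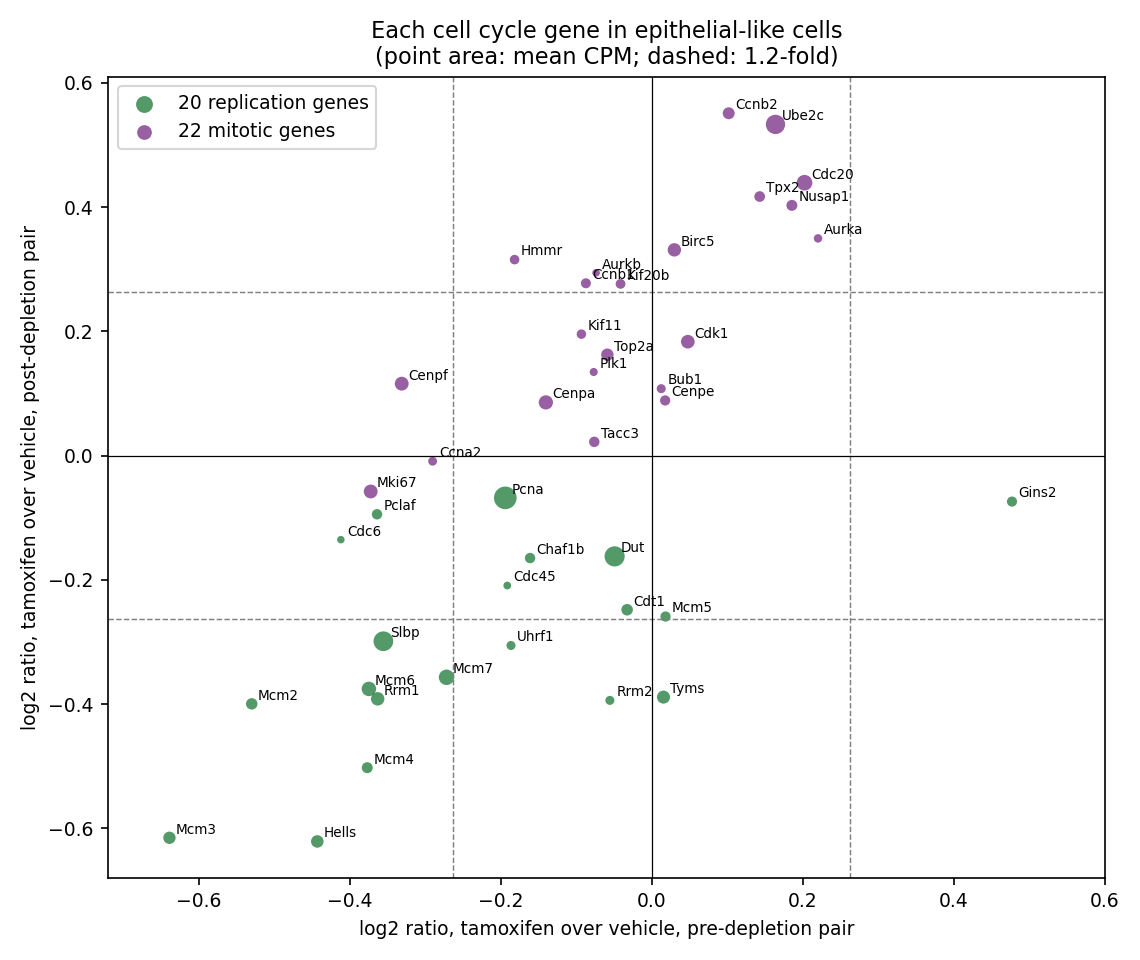
Log2 ratio of tamoxifen to vehicle in epithelial-like cells before depletion (x axis) and after it (y axis), with 1 point per gene, point area for the mean CPM and dashed lines at 1.2-fold. Of the 20 replication genes, 17 lie in the lower left with both ratios below 0, and 20 of the 22 mitotic genes lie above 0 on the y axis. Over the 9021 genes considered (not drawn), 4985 were below 0 before depletion, and after it 4311 were below and 4710 above 0.

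The mitotic genes differed between treatments more after depletion than before it. Ube2c, which loads ubiquitin for the anaphase-promoting complex, stood at 53.8 CPM in vehicle pre-depletion, 33.0 in vehicle post-depletion, 60.4 in tamoxifen pre-depletion and 48.2 in tamoxifen post-depletion. Its ratios were 0.16 and 0.53, and the vehicle pre-depletion value lay between the tamoxifen values. Cdc20, an activator of the same complex, stood at 30.7, 23.0, 35.5 and 31.6 CPM, with ratios of 0.20 and 0.44. Both its tamoxifen values lay above both vehicle values. The counting intervals of vehicle pre-depletion (28.7 to 32.8) and tamoxifen post-depletion (30.6 to 32.6) overlapped, however. Cyclin B2 (Ccnb2), a partner of Cdk1 at entry into mitosis, stood at 16.4, 11.1, 17.7 and 16.8 CPM, with ratios of 0.10 and 0.55 and again no overlap.

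Other mitotic genes were flat or lower before depletion. Cenpa stood at 27.4, 21.6, 24.8 and 23.0 CPM, in the order vehicle pre- and post-depletion and tamoxifen pre- and post-depletion, with ratios of -0.14 and 0.09. The kinetochore protein Cenpf stood at 27.9, 19.5, 22.0 and 21.2 CPM, with ratios of -0.33 and 0.12. Mki67 stood at 28.1, 20.8, 21.5 and 19.9 CPM, with ratios of -0.37 and -0.06. The treatments overlapped for all 3 genes. Cyclin A2 (Ccna2), which acts from S phase to mitosis, was low at 7.98, 5.45, 6.34 and 5.41 CPM; with Mki67 it was 1 of 2 mitotic genes below 0 in both pairs. In the set, 10 genes were above 0 before depletion and 20 after it, 10 of them in both. Over the 9021 genes considered, 4036 were above 0 before depletion and 4710 after it. Intervals lay wholly above 0 for 2 mitotic genes before and 16 after depletion, and wholly below 0 for 4 and 0, with no such count over all genes. These intervals too were narrower after depletion, so the counts before and after it are not read against each other.

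The portions of a treatment also differed in the mitotic genes, in vehicle by more than the treatments did in either pair. In tamoxifen the portions differed by less than the treatments did after depletion. Post-depletion over pre-depletion, the log2 ratio of the mitotic genes was -0.45 (-0.48 to -0.41) in vehicle and -0.15 (-0.18 to -0.12) in tamoxifen. For the replication genes it was 0.10 (0.08 to 0.13) and 0.06 (0.03 to 0.09). Markers of other cells also moved between these libraries: the alveolar macrophage marker list summed to 159 CPM, 105, 211 and 94 in the epithelial-like cells of vehicle pre- and post-depletion and tamoxifen pre- and post-depletion. The monocyte and macrophage list, which holds Apoe, summed to 1209.8, 1413, 422 and 440.2 CPM, and the neutrophil list to 45.9, 3.63, 56.5 and 4.33 CPM. The part of these cells or of their free RNA in the ratios was not tested.

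The lower level of the replication genes was also present in cells with no mitotic UMI after thinning, some of which held mitotic UMIs at their full depth. After thinning to 2000 UMIs, a split added after the data were seen, 788 vehicle pre-depletion, 4962 vehicle post-depletion, 857 tamoxifen pre-depletion and 5448 tamoxifen post-depletion epithelial-like cells held no mitotic UMI. They held 68.7% to 69.2% of the replication UMIs in the epithelial-like cells of their library. Cells with fewer than 2000 UMIs were left out of this split. Their replication genes, on all UMIs of those cells, summed to 359.5, 383, 294 and 308 CPM, with log2 ratios of -0.29 (-0.34 to -0.25) before and -0.31 (-0.34 to -0.29) after depletion. In the 56, 287, 59 and 325 cells with at least 2 mitotic UMIs they summed to 1046, 1302, 991 and 1177 CPM, with ratios of -0.08 (-0.16 to 0.01) and -0.15 (-0.19 to -0.11). Cells with 1 mitotic UMI lay between these levels, at 529.9, 521, 465 and 362 CPM, with ratios of -0.19 (-0.30 to -0.08) and -0.53 (-0.59 to -0.47). The replication level was thus lower under the tamoxifen label in each group of cells, and the counting interval reached 0 only before depletion in cells with at least 2 mitotic UMIs.

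Single replication genes differed in how far they went with mitotic UMIs. Cells with at least 2 mitotic UMIs had Pclaf at 48.1 to 88.7 times and Rrm2 at 33.3 to 68.8 times the level of cells with none, over the 4 libraries. Slbp differed by 1.28 to 1.56 times, Pcna by 1.99 to 2.42 times and Mcm3 by 2.42 to 4.22 times. In cells without a mitotic UMI, Mcm3 gave 17.6 CPM in vehicle pre-depletion, 18.1 in vehicle post-depletion, 9.56 in tamoxifen pre-depletion and 10.7 in tamoxifen post-depletion, with no overlap. In those cells 18 of the 20 replication genes were below 0 in both pairs, with medians of -0.35 and -0.38. In cells with at least 2 mitotic UMIs 10 of 20 were, with medians of -0.10 and -0.11. No such count was made over all genes in these groups of cells.

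**Figure D3:**
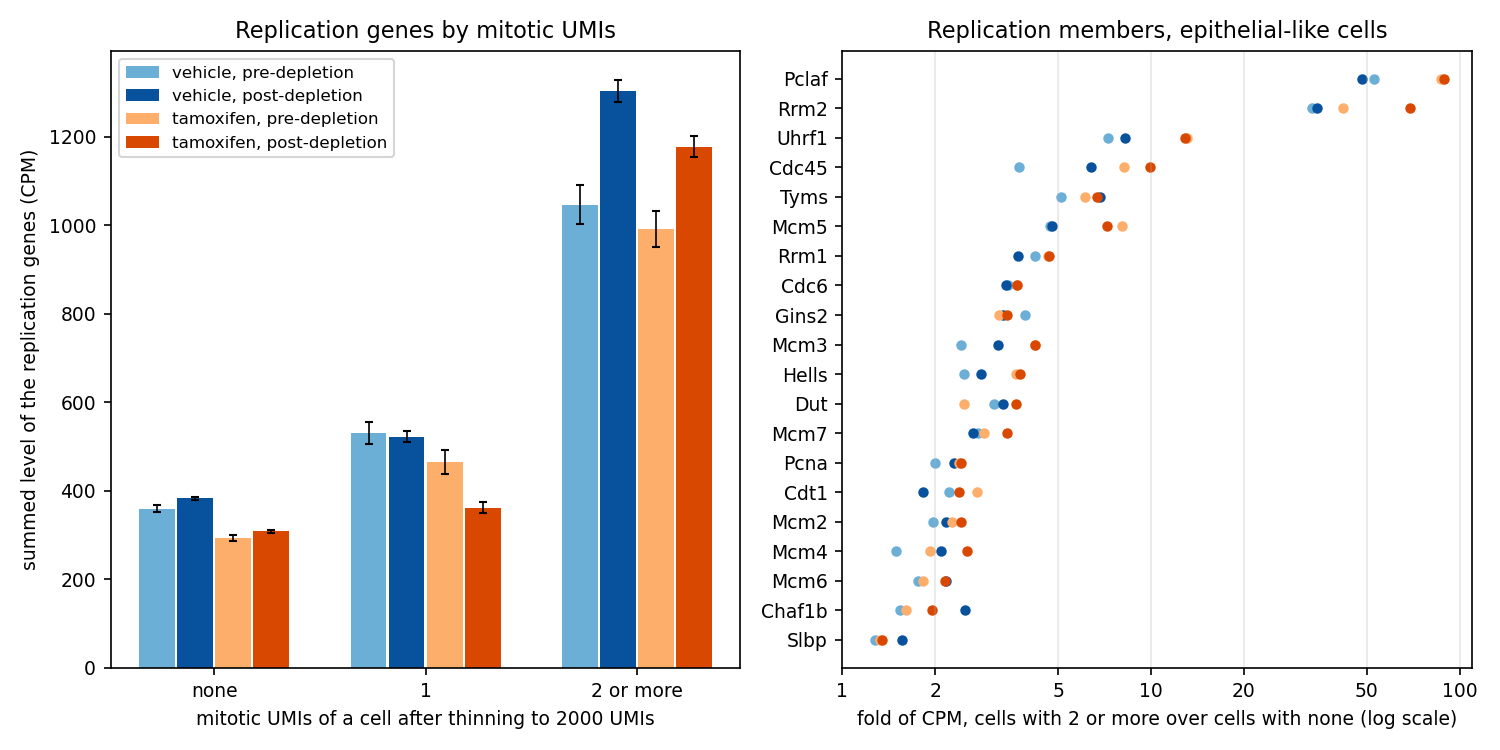
Left, bars from 0 for the summed level of the 20 replication genes (CPM) in epithelial-like cells with no, 1 or at least 2 mitotic UMIs after thinning to 2000 UMIs, by library, with 95% counting intervals; right, the fold between cells with at least 2 and with none for each replication gene on a log axis, 1 point per library. Each tamoxifen bar is below the vehicle bar of its pair, and Pclaf (48.1 to 88.7 times) and Rrm2 (33.3 to 68.8 times) lie far right of Slbp (1.28 to 1.56 times).

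The epithelial-like cells fell into 15 states, clustered without cell cycle genes and called here by number and leading genes. Over the 4 libraries together, the replication genes summed from 228 CPM in state 10 (Tmeff2 and Lrp1b) to 650.3 CPM in state 12 (Scgb3a2 and Scgb1a1), and the mitotic genes from 58.9 CPM in state 6 (Rtkn2 and Cym) to 745 CPM in state 12. State 12 was shallow, with a median of 2438 UMIs in 273 cells, and state 10 had a median mitochondrial share of 13.2%. State 6 held replication genes at 307 CPM, close to the 299.8 CPM of the largest state (state 1, Lyz1 and Cbr2), whose mitotic genes were at 254 CPM. Its share of cells with mitotic UMIs was 0.741% (0.27% to 1.61%), which did not differ beyond counting error from the 1.51% and 0.714% in neutrophil-like cells.

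The order of the states differed between the sets. State 5 (Agr2 and Adgrl3) had replication genes at 577.5 CPM and mitotic genes at 342 CPM, and 25.8% of its cells held replication UMIs. State 8 (Dcn and Plppr1) had 431 and 538 CPM, and state 3 (Procr and F3) 404 and 143 CPM. States 2 (Bex2 and Bex4), 4 (Cpe and Pf4) and 7 (Sec14l3 and Cyp2b10) had replication genes at 370.3, 397 and 389 CPM and mitotic genes at 416, 331 and 388 CPM. These pooled values mix libraries. In state 7 the mitotic genes stood at 1028 CPM in vehicle pre-depletion (53 cells), 318 in vehicle post-depletion and 125 in tamoxifen post-depletion. The libraries filled the states unequally. State 5 held 109 and 1130 cells of the vehicle libraries and 10 and 127 of the tamoxifen libraries, whereas state 4 held 4 and 21 against 206 and 1556. State 15 (Ccl6 and Chil3), with 113 cells from the pre-depletion libraries, carried alveolar macrophage markers at 890.4 CPM and neutrophil markers at 358 CPM; the part of such cells in its values was not tested.

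**Figure D4:**
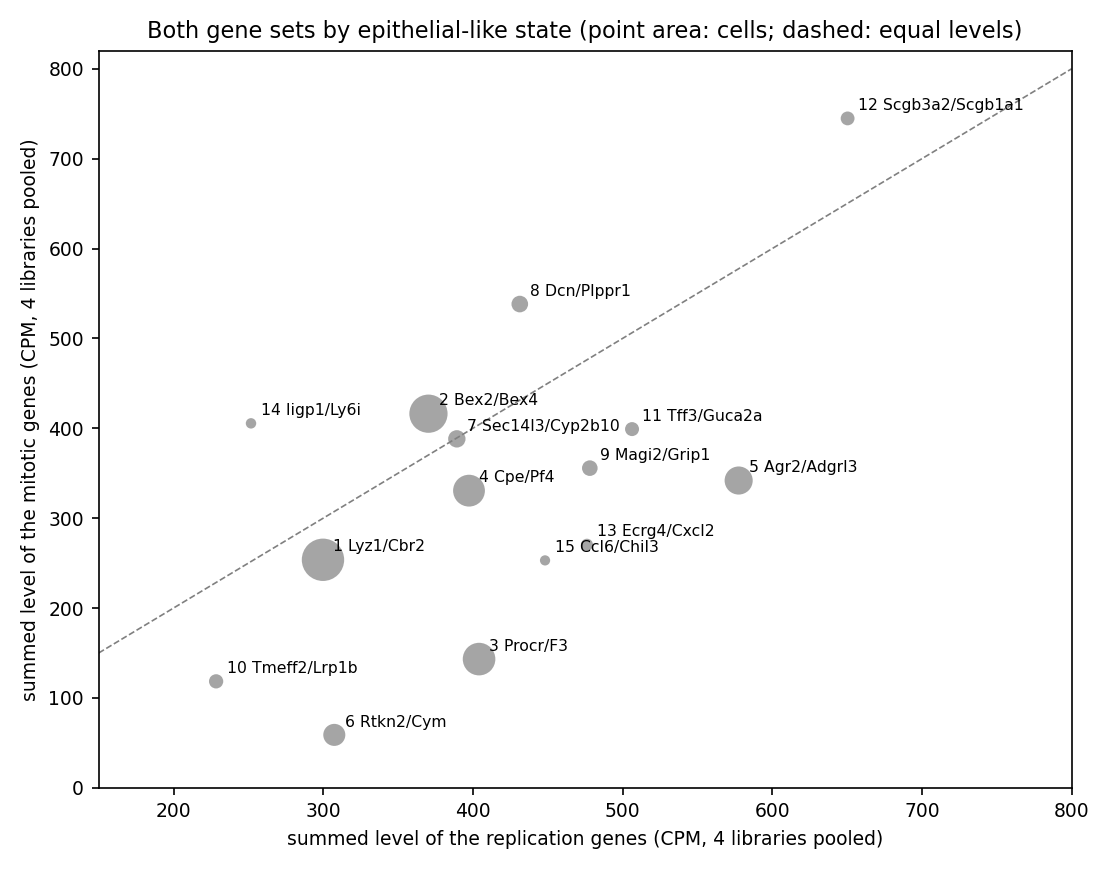
Summed level of the mitotic genes (y axis) against that of the replication genes (x axis, which does not start at 0), both in CPM on linear axes, with 1 point per epithelial-like state over the 4 libraries, point area for the number of cells and a dashed line of equal levels. State 12 lies at the top right (650.3 and 745 CPM), state 5 at 577.5 CPM of replication genes, and state 6 lowest at 58.9 CPM of mitotic genes.

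Within states, the replication genes did not move in a single direction between treatments. Their log2 ratio was 0.27 in state 1, 0.21 in state 2 and -0.47 in state 3 before depletion, and -0.20, -0.06 and 0.01 after it. The mitotic genes were higher under the tamoxifen label in these states, by 0.93, 0.20 and 0.46 before depletion and by 0.56, 0.34 and 0.16 after it. State 5 gave -0.28 for replication and 0.64 for mitotic genes after depletion, and state 7 gave -0.81 and -1.35. States with at least 50 cells in both libraries of a pair were also weighted by their UMIs pooled over the pair. The replication ratio was then -0.05 before depletion (4 states) and -0.16 after it (6 states), against -0.25 and -0.29 over all cells. These states held 63.9% of vehicle and 51.2% of tamoxifen cells before depletion and 83.9% and 64.4% after it, so both the weights and the cells differ. The mitotic ratio was then 0.51 and 0.42. When cell cycle genes were kept in the clustering, cells rich in mitotic transcripts formed a state of their own (led by Ube2c, Cdc20, Birc5 and Mki67, with 54, 197, 51 and 298 cells), so the mitotic ratios of the other states under that clustering are not read against these.

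Other classes showed their own combinations. T cell-like cells had lower levels of both sets under the tamoxifen label: replication genes stood at 1319 and 1010.2 CPM (log2 ratio -0.38) and mitotic genes at 1114 and 743 CPM (-0.58). Of 19 replication genes considered 13 were lower and 0 higher, and of 21 mitotic genes 18 were lower and 0 higher, where 27.0% of all genes considered in this pair were lower and 10.3% higher. In these cells Mki67 stood at 164 CPM in vehicle and 89.6 in tamoxifen, Pclaf at 143 and 77.7, and Mcm3 at 63.7 and 45.4. B cell-like cells also had less of both sets, with ratios of -0.71 and -1.93, but their mitotic value rested on 11 and 7 cells with mitotic UMIs.

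Endothelial-like cells had fewer replication and more mitotic transcripts under the tamoxifen label in both pairs. Replication genes stood at 695 CPM in vehicle pre-depletion, 669 in vehicle post-depletion, 415.5 in tamoxifen pre-depletion and 489 in tamoxifen post-depletion, and mitotic genes at 619.6, 585, 863 and 806 CPM; neither set overlapped between treatments. The log2 ratios were -0.74 and -0.45 for replication genes and 0.48 and 0.46 for mitotic genes, from 123 to 167 cells a library. The mitotic levels rested on 14 cells with at least 2 mitotic UMIs after thinning in each vehicle library and 10 in each tamoxifen library, and the 10% of cells richest in mitotic UMIs held 92.6% to 95.9% of them. Without doublet removal the replication ratio before depletion was -0.44 and the mitotic ratio after depletion 0.20. Before depletion 17 of 18 replication genes considered were lower and 0 higher, and 15 of 22 mitotic genes were higher and 3 lower, where 28.6% of all genes considered were lower and 16.3% higher. Ube2c went from 31.0 CPM in vehicle to 107 in tamoxifen, and Hells from 18.1 to 7.202. The share of cells with mitotic UMIs was not higher: it was 9.15% and 8.59% in the vehicle libraries and 6.67% and 8.26% in the tamoxifen libraries.

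Dendritic cell-like cells had higher replication and lower mitotic levels under the tamoxifen label. The class joined clusters that the libraries filled unequally: the cluster led by Ccl22 and Ccl17 gave 498 of 609 vehicle and 243 of 374 tamoxifen cells, that led by Cd207 and Wdfy4 gave 44 and 58, and that led by Siglech gave 67 and 73. Their replication genes stood at 585 CPM in vehicle and 651 in tamoxifen (0.15), and their mitotic genes at 811 and 619 CPM (-0.39). Of 17 replication genes considered 5 were higher and 0 lower, and of 20 mitotic genes 16 were lower and 0 higher, against 12% higher and 17.2% lower over all genes considered. Cenpf went from 42.3 CPM in vehicle to 20.5 in tamoxifen, and Mki67 from 115 to 78.9.

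Macrophage classes had lower replication genes under the tamoxifen label and small mitotic ratios. In alveolar macrophage-like cells the replication genes stood at 587 and 463 CPM (-0.34) and the mitotic genes at 508 and 515 CPM (0.02). Of 16 replication genes considered 12 were lower and 0 higher, and of 17 mitotic genes 2 were lower and 4 higher, against 5.78% lower and 5.26% higher over all genes considered. In monocyte or macrophage-like cells the ratios were -0.22 and 0.08, with 7 of 16 replication genes lower and 0 higher and with 1 of 19 mitotic genes lower and 4 higher, against 9.26% lower and 4.91% higher over all genes considered. With cell cycle genes kept in the clustering, a cluster led by Top2a, Mki67 and Pclaf (201 vehicle and 174 tamoxifen cells) was counted as alveolar macrophage-like with 0 markers of that class among its top 10 genes, so class ratios under that clustering regroup the cells by the genes measured and are not read against these.

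The smallest classes are given side by side. NK cell-like cells (138 and 97 cells) stood at 659 and 1085 CPM for replication genes and at 258 and 1051 CPM for mitotic genes in vehicle and tamoxifen. Fibroblast-like cells before depletion (119 and 83 cells) stood at 332 and 274 CPM for replication genes and at 439.7 and 47.1 CPM for mitotic genes; after depletion they stood at 351 and 388 CPM and at 439 and 337 CPM. The mitotic values rested on 6 and 5 NK cell-like cells with at least 2 mitotic UMIs after thinning, and on 9 and 1 fibroblast-like cells before and 9 and 5 after depletion. Neutrophil-like cells had ratios of -0.13 (-0.32 to 0.06) and -1.21 (-1.52 to -0.90), and without doublet removal the mitotic ratio was -0.53.

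**Figure D5:**
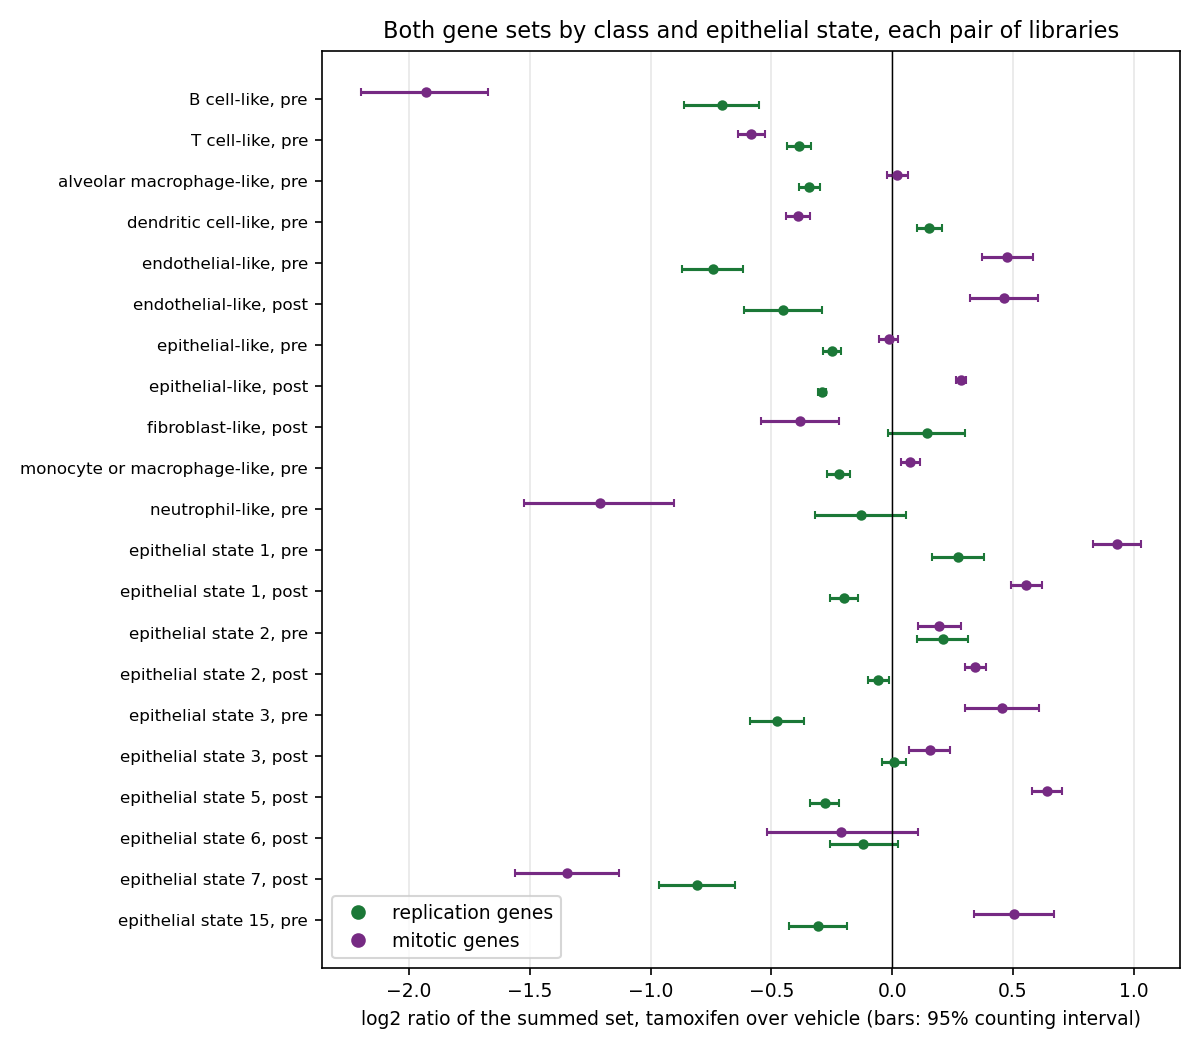
Log2 ratio of tamoxifen to vehicle of the summed replication genes (green) and mitotic genes (purple) in each class and epithelial-like state, before (pre) or after (post) depletion, with bars for the 95% counting interval and a line at 0. In endothelial-like cells both pairs have replication genes left of 0 (-0.74 and -0.45) and mitotic genes right of it (0.48 and 0.46).

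Other cell cycle genes, from lists that exclude the 42, were read in epithelial-like cells against the same background of 8.60% lower and 6.99% higher. Of 11 further origin licensing and firing genes considered, 0 were lower or higher, with medians of -0.07 and -0.07; Mcmbp, which binds the Mcm ring, had ratios of -0.36 and -0.25 and the Cdt1 inhibitor Gmnn (geminin) -0.24 and -0.48. Of 17 fork and chromatin assembly genes, 1 was higher: the primase subunit Prim2, at 18.3 and 20.6 CPM in vehicle and 35.0 and 31.5 CPM in tamoxifen pre- and post-depletion. The clamp loader subunit Rfc4 had ratios of -0.11 and -0.40. Of 9 genes of nucleotide supply, 3 were lower and 0 higher; among them, Umps of pyrimidine synthesis had ratios of -0.52 and -0.63, and the dCTP pyrophosphatase Dctpp1 had -0.31 and -0.57.

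Regulators of the cycle were called in both directions. Of 9 G1 cyclins and kinases, Ccnd2 and Cdk6 were lower and 0 higher. Of 11 E2F, Rb and MuvB genes considered 0 were called in either direction, with medians of -0.12 and -0.14; E2f3 had ratios of -0.50 and -0.20 and its partner Tfdp1 -0.21 and -0.43. Among 10 inhibitors and arrest genes, Cdkn1a (p21) stood at 145 and 158 CPM in vehicle and at 79.3 and 80.0 CPM in tamoxifen pre- and post-depletion. Cdkn1c (p57) stood at 79.4 and 109 CPM against 32.3 and 31.1 CPM. Neither gene overlapped between treatments, and Cdkn2b (p15) was higher, with ratios of 0.48 and 0.42. Of 18 checkpoint and anaphase-promoting complex genes, 4 were higher (Anapc13, Cdc23, Chek2 and Cdc25b) and 1 lower, the Cdk1 inhibitor kinase Wee1, with ratios of -0.68 and -0.33. Of 26 further kinetochore, spindle and cytokinesis genes 5 were lower and 1, Ckap2, higher, with medians of 0.03 and 0.09. Among the lower were Cks2, a Cdk1 subunit, with ratios of -0.46 and -0.41, and Ect2 of cytokinesis, with -0.43 and -0.38. Of 9 histone genes considered, Hist1h2ae was higher, with ratios of 0.94 and 0.78, and 0 were lower; Hist1h1b had 0.84 and 0.06.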

How the data were processed

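Single-cell 3′ RNA libraries were deposited as UMI counts per gene and cell barcode, made by the authors with Cell Ranger 7.0.1 per the file headers, or 7.2.0 on mm10 per the submitters' processing notes. The annotation, intron use and strand setting are not given in the sources used here. Cells with fewer than 200 genes, over 20% mitochondrial UMIs or a doublet score over 0.25 were removed (scanpy 1.11.5). Cells were clustered without 216 cell cycle genes (2000 variable genes, 40 principal components, 15 neighbours, Leiden resolution 1, and 0.6 for states), and clusters were named from marker lists. Counts were summed per class and library and divided by the summed UMIs, as CPM; ratios of single genes used a pseudocount of 1 CPM, and their intervals none. Intervals are exact (Poisson for levels, conditional binomial for ratios, Clopper-Pearson for shares) at 95%, and UMI counts limit counting error only. Those of levels and ratios take UMIs as independent and leave out the sampling of cells. With 1 library per group no test was made. The 1.2-fold size rule was run on simulated counts with larger fold differences and counting error only. How often it errs near 1.2-fold, for genes near 10 CPM or with differences between animals or tumours was not tested. edgeR 4.0.16 gave the TMM factors alone.

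The members and lists were chosen with earlier results of these data known. Values in every library are given, in each set, for the 4 genes with the highest mean CPM in epithelial-like cells. They are also given for the 3 lowest and 3 highest genes by mean log2 ratio there. For the 2 largest ratios of each other list, Prim2, Cdkn1a and Cdkn1c are given by library and the others by ratio or call. The values of 1 listed gene are not reported here. Clusters 7 and 12, which carry epithelial markers with other leading genes, stayed unnamed. Alternatives covered scaling, clustering, doublets, thinning, fold, pseudocount and weighting.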

Additional observations from a re-analysis of the deposited data

Results flagged for a closer look

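The classes and states did not move alike between the libraries labelled vehicle and tamoxifen. In each case below some moved one way and others the opposite way, and none of these differences was tested, since each group is 1 library. In the pre-depletion pair the replication genes had a positive log2 ratio of tamoxifen to vehicle in dendritic cell-like cells (0.15), and negative ratios in B cell-like (-0.71), T cell-like (-0.38), alveolar macrophage-like (-0.34), endothelial-like (-0.74), epithelial-like (-0.25) and monocyte or macrophage-like cells (-0.22). The mitotic genes in the same pair had positive ratios in endothelial-like (0.48) and monocyte or macrophage-like cells (0.076), and negative ones in B cell-like (-1.93), T cell-like (-0.58), dendritic cell-like (-0.39) and neutrophil-like cells (-1.21). In the post-depletion pair the mitotic ratio was positive in endothelial-like (0.46) and epithelial-like cells (0.28) and negative in fibroblast-like cells (-0.38).

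Among epithelial-like states before depletion, the replication ratio was 0.27 in state 1 and 0.21 in state 2, against -0.47 in state 3 and -0.31 in state 15. After depletion, the mitotic ratio was 0.56 in state 1, 0.34 in state 2, 0.16 in state 3 and 0.64 in state 5, against -1.35 in state 7.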

How the results depend on the processing

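No paired analysis was possible because each group holds 1 library, and for the same reason no library could be left out. Counts are out of the values recomputed: 34 of 70 epithelial-like ratios, 112 of 132 class ratios, 62 of 87 state values, 51 of 56 counts of called genes, 26 of 32 shares and 317 of 352 values of named genes stayed in their direction and within the counting interval. The cause of the following moves was not tested. Epithelial-like ratios are given for replication genes and then mitotic genes. TMM scaling gave -0.20 and 0.032 before and -0.27 and 0.31 after depletion, and median-of-ratios scaling -0.19 and 0.045 before depletion. T cell-like ratios were then -0.33 and -0.52 with TMM and -0.32 and -0.52 with median-of-ratios. These scalings shifted all genes by 0.05 and 0.06 before depletion. A marker gate on each cell gave -0.20 and -0.081 (difference 0.12) before and -0.22 and 0.16 (difference 0.38) after depletion, with Cenpa at -0.048 after depletion. The mean over cells of CPM gave -0.19 and -0.072 (0.12) before and -0.21 and 0.24 (0.44) after depletion, 2 replication genes called lower in place of 8, Mcm7 at 0.0029 before and Pcna at 0.039 after depletion. States with common weights (UMIs pooled over a pair) gave -0.050 and 0.51 (0.56), and -0.16 and 0.42. Without doublet removal the mitotic ratio before depletion was -0.078 (0.18), with both unnamed clusters 0.034 before and -0.26 and 0.24 (0.51) after depletion, and without state 12 it was 0.31 after depletion. The replication ratio was -0.29 and -0.31 in cells with no mitotic UMI and -0.078 and -0.15 in cells with at least 2. The count of 8 was 1 at a fold of 1.5 and 0 at a fold of 2; mitotic genes called higher were 3 with cell cycle genes kept in the clustering and 1 with both unnamed clusters, in place of 0.

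With cell cycle genes kept, cells rich in mitotic transcripts formed a state of their own and a cluster joined to the alveolar macrophage-like class, so the values of states and classes below are read on regrouped cells. The epithelial-like mitotic ratio before depletion was 0.083 (difference 0.31) and that of T cell-like cells -0.44 (-0.10). Alveolar macrophage-like cells gave -0.47 and -0.58 (-0.11), dendritic cell-like cells 0.20 for mitotic genes (0.040) and monocyte or macrophage-like cells -0.21 (0.025). State 1 gave -0.066 for replication genes before depletion and 0.10 and -0.029 (-0.13) after it. State 2 gave -0.14 and -0.34 before and -0.036 for mitotic genes after depletion. State 3 gave -0.70 (-0.41) for mitotic genes before and -0.47 (-0.40) after depletion. Without doublet removal, T cell-like mitotic genes were at -0.51, endothelial-like replication genes at -0.44 (0.97) before and mitotic genes at 0.20 (0.60) after depletion, neutrophil-like mitotic genes at -0.53 (-0.34) and state 15 at -0.46 (-0.14). Unthinned, the differences in replication share were 4.87 and 1.44 percentage points and that in mitotic share after depletion -3.76. Thinned to 4000 UMIs, the replication difference after depletion was -3.63, and with at least 1 UMI the mitotic differences were -2.64 and -0.82. Depth limits the smaller classes: NK cell-like cells had 654291 and 473801 UMIs in all.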

Other observations

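Clusters 7 and 12, unnamed, carried all 8 epithelial markers and had Mcpt8 among their leading genes. Cluster 12 (Hmga2 and Pyy) was poor in mitotic genes, at 101 CPM in vehicle and 80.7 CPM in tamoxifen after depletion, with replication genes at 432 and 451 CPM. Cluster 7 (Tff1 and Mcpt2) had mitotic genes at 151 and 151 CPM and replication genes at 386 and 339 CPM in the same libraries.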
